A study of Mus musculus with 12 samples.

Results

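The regions described here are stretches of chromatin that were accessible in motor neuron progenitors, were still accessible at day 4 without Hox induction and with Hoxc6, and had no accessible domain once Hoxc9 or Hoxc10 was induced. They were chosen by their presence or absence in the lists, as progenitor domains at least 150 bp wide on chromosomes 1 to 19, X and Y that overlapped, by at least 1 bp, a domain of the uninduced day 4 list and of the iHoxc6 list and no domain of the iHoxc9 and iHoxc10 lists. Of 87916 progenitor domains on these chromosomes, 41544 were wide enough, 34898 of those overlapped an uninduced day 4 domain, and 32444 also overlapped an iHoxc6 domain. These 32444 are called eligible. Of them, 2854 met the rule and are called lost in both. This is 8.8% of the eligible domains, a share that the rule itself fixes and that is given as a description. Lost means that no domain was called there, and how far signal fell was not analysed here. Another 2605 eligible domains (8.03%) were absent from the iHoxc9 list alone, 1737 (5.35%) were absent from the iHoxc10 list alone, and 25248 overlapped a domain in both lists and are called kept in both.

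The lists come from ATAC-seq, in which a transposase cuts and tags open DNA, of mouse embryonic stem cells differentiated towards spinal motor neurons. There were 12 samples in 6 groups of 2: embryoid bodies (EB) before patterning, progenitors after 2 days of 1 µM retinoic acid (RA) and 0.5 µM of the Hedgehog agonist SAG, and 4 groups at day 4 of the same RA and SAG treatment. The iHoxc6, iHoxc9 and iHoxc10 cells received 3 µg/mL doxycycline (Dox) for the last 48 h, which switched on a Flag-tagged Hox gene inserted as a single copy at the HPRT locus of the lines Ainv15(iFlag.Hoxc6), Ainv15(iFlag.Hoxc9) and Ainv15(iFlag.Hoxc10). The uninduced control, noDox, was the Ainv15(iFlag.Hoxc6) line without Dox, and EB and progenitor samples came from the parental line Ainv15(iCre). Each factor was thus studied in 1 inducible line, and line cannot be told apart from factor. No other allele or agent was named for any group.

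Hox transcription factors are laid out along the chromosomes in the order in which they act along the body axis, and in the spinal cord they give motor neurons their segmental identity. Hoxc6 is a central member of the family active in brachial motor neurons, Hoxc9 is characteristic of the thoracic cord and Hoxc10 of the lumbar cord, and Hoxc9 and Hoxc10 belong to its posterior group. Central Hox proteins are known to prefer DNA with a TAAT core and posterior ones a TTTAT core. Accessible domains away from promoters are often enhancers, the elements that set in which cells a gene is active.

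The central 300 bases of 6 members are printed to show the kind of DNA involved. They are 3 of the 4 widest members, followed by the widest member nearest to each of Tenm3, Adgrl2 and Klhl29, the genes that head the list of genes with most members. All are given 5′ to 3′ on the plus strand of GRCm38 (mm10). Capitals mark TAAT, TTTAT (Hox cores) or AACAAT (a SOX site) on either strand, so ATTA, ATAAA and ATTGTT are marked as well.
Ttc6 intron, chr12:57623554-57623853, plus strand: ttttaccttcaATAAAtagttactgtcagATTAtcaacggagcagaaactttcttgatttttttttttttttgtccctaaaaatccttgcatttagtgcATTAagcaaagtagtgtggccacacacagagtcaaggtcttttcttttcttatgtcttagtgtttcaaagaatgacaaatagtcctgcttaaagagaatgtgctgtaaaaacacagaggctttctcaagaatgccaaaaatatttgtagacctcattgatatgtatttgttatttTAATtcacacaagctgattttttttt
Celrr intron, chr1:121112283-121112582, plus strand: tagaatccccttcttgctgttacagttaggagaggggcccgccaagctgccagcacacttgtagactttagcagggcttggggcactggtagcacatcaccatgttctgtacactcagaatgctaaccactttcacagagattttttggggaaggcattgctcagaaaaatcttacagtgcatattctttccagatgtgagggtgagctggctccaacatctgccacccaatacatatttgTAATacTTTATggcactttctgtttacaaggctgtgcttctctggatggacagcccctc
intergenic, nearest gene AI429214, chr8:37460749-37461048, plus strand: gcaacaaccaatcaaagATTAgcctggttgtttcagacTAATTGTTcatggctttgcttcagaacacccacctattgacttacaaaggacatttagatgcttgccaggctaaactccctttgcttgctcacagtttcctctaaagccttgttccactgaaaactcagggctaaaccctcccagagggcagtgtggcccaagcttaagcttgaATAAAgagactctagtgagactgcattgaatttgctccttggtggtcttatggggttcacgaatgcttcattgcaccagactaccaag
4930555F03Rik intron, nearest coding gene Tenm3, chr8:49440040-49440339, plus strand: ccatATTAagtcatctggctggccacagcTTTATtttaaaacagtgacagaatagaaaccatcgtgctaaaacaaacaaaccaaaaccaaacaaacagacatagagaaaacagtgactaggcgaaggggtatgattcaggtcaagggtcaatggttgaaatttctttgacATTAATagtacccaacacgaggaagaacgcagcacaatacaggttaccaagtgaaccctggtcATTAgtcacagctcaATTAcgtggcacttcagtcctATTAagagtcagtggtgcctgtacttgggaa
intergenic, nearest gene Adgrl2, chr3:148812459-148812758, plus strand: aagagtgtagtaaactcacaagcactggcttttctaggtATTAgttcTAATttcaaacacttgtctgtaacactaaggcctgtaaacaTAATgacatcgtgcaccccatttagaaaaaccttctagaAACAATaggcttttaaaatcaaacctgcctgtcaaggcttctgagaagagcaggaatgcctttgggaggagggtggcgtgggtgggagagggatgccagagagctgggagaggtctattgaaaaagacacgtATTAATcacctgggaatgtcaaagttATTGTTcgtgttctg
intergenic, nearest gene Klhl29, chr12:5999404-5999703, plus strand: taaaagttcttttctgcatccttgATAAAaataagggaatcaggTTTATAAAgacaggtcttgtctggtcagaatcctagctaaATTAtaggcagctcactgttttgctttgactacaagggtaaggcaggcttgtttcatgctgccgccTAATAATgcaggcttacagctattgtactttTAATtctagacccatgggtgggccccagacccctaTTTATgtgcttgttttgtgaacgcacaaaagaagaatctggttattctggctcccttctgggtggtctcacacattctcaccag
The stretches hold between 1 and 6 TAAT cores each. The GC content of their central 150 bp was lowest in the Ttc6 stretch, at 37.3%, and in the Tenm3 stretch, at 40.7%, and was 46% to 48% in the other 4. The Klhl29 stretch holds 4 matches to TTTAT and 4 to TAAT, and the Adgrl2 stretch holds 2 matches to AACAAT.

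Each group had 1 list, made by the authors from both samples, with no height or read count per domain. No spread between samples and no test across samples could therefore be had for any value below. Percentages are followed in brackets by 95% Wilson intervals, and these reflect the number of domains counted, not variation between cultures. On the chromosomes used, the iHoxc9 and iHoxc10 lists held 63504 and 56232 domains and the other 4 lists between 87916 and 94875. The lists that lack the members are thus the shortest, read depth is unknown, and the part of list length in the loss was not tested. In day 4 lists cut to equal length 1903 domains met the rule. Such a cut cannot restore domains that a short list lacks, so it does not decide the question. The noDox list differs from the others in its number of columns and carries another day in its name. As a check on the labelled cell type, the promoters of Olig2 and Nkx6-1 (progenitor factors), Isl1, Mnx1 and Lhx3 (motor neuron factors) and Tubb3 and Elavl3 (neuronal genes) held a domain in all 6 lists. Promoters of the pluripotency genes Pou5f1 and Nanog held one only in EB, and that of Zfp42, another pluripotency gene, held one in EB and in progenitors. Promoter domains over Sox17, Gata4 and Tbx6, markers of other lineages, were also present in all 6 lists, so an accessible promoter does not name a cell type here. The promoter of Chat, the acetylcholine-synthesising enzyme, lacked a domain in iHoxc9.

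The domains lost in both were narrow, and narrower still at day 4 in the lists that kept them. Their median width was 292 bp in progenitors (range 150 to 1244), 210 bp in noDox and 160 bp in iHoxc6. Domains kept in both had medians of 599, 719 and 585 bp in the same lists. Domains lost in iHoxc10 only were nearly as narrow as the members, at 297, 232 and 188 bp. Those lost in iHoxc9 only measured 340, 328 and 252 bp. The median ratio of noDox to progenitor width was 0.686 for domains lost in both and 1.11 for domains kept in both, and the ratio of iHoxc6 to progenitor width was 0.497 against 0.961. In noDox 70.3% (68.6 to 71.9) of the domains lost in both were narrower than in progenitors, against 34.3% (33.7 to 34.9) of those kept in both. In iHoxc6 81.7% (80.2 to 83.1) of the domains lost in both were narrower than in progenitors, against 14398 of 25248 (interval 56.4 to 57.6%) of those kept in both, so narrowing in iHoxc6 was common to most domains. In iHoxc6 23.2% (21.6 to 24.7) of them were under 50 bp, against 1.12% (0.998 to 1.26) of those kept in both. Only 302 members (10.6%) were wider than in progenitors in both noDox and iHoxc6. Narrowing was shared by domains lost in iHoxc9 only, of which 57.7% in noDox and 71.2% in iHoxc6 were narrower than in progenitors. For domains lost in iHoxc10 only these shares were 65.4% and 74.7%. The minimum of 150 bp applies to the progenitor width alone, which favours narrower widths at day 4, most of all near that limit. The sets were not matched for progenitor width. Because the rule also asks for presence in these lists, the widths and their changes are a description of the members.

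**Figure D1:**
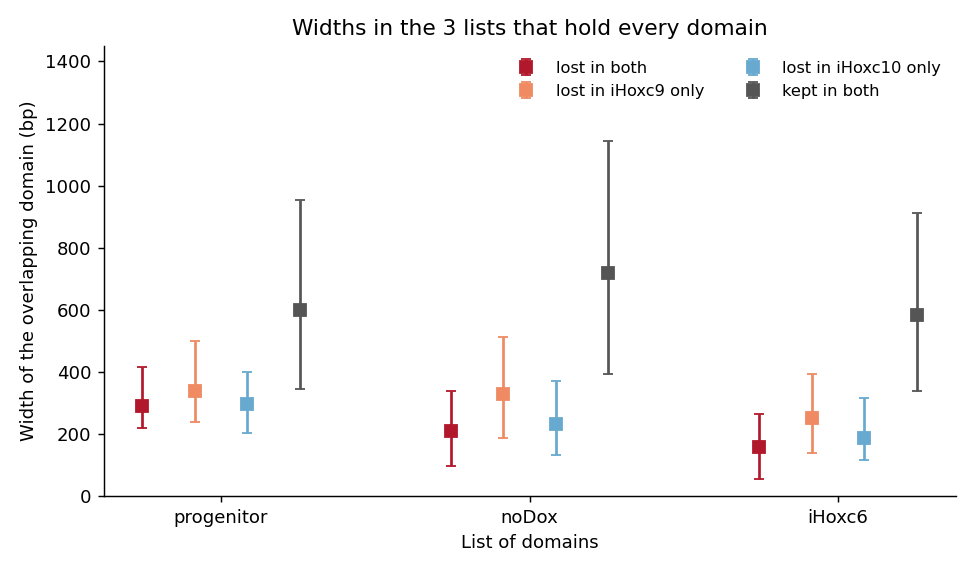
Width in bp (vertical axis) of the domain overlapping each eligible progenitor domain in the progenitor, noDox and iHoxc6 lists (horizontal axis), for the 4 sets of eligible domains. Squares are medians and bars run from the first to the third quartile over domains; the median of domains lost in both went from 292 to 210 and 160 bp while domains kept in both stayed at 599, 719 and 585 bp.

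Narrow domains were lost more often than wide ones. Among eligible domains 150 to under 200 bp wide in progenitors, 15.4% (14.3 to 16.7) were lost in both. The share was 20.3% (19.1 to 21.4) at 200 to under 300 bp, 11.9% (11.2 to 12.7) at 300 to under 500 bp and 2.49% (2.26 to 2.74) at 500 bp or more. By width in noDox, where the rule sets no minimum, the same 4 classes came in the same order. Their shares were 17.3% (15.8 to 19.1), 19.7% (18.4 to 21.2), 9.45% (8.73 to 10.2) and 1.67% (1.49 to 1.87). In the classes from 300 bp up these intervals lay below those by progenitor width. Narrower noDox domains were lost more often, with 27.0% (25.2 to 28.8) at 50 to under 150 bp and 43.7% (40.4 to 47.0) under 50 bp. At the width limit of the rule, 91 of 753 eligible domains in the 10 bp above it were lost in both, and 210 of 1167 domains in the 10 bp below it would have been. At the overlap limit, 40 members lay within 20 bp of an iHoxc9 or iHoxc10 domain, and 93 eligible domains were left out although the iHoxc9 and iHoxc10 lists together covered no more than 20 bp of them.

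**Figure D2:**
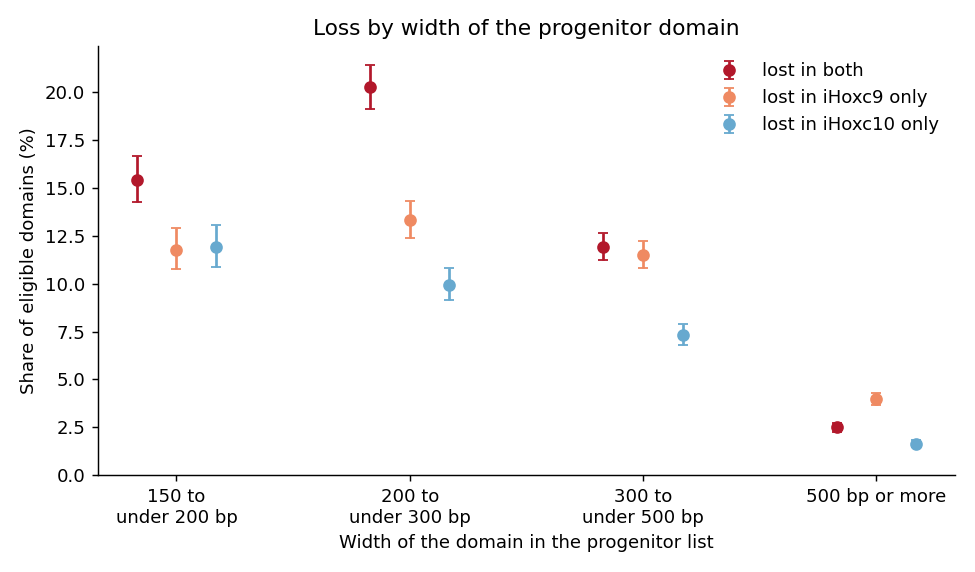
Share of eligible domains (%, vertical axis) lost in both, in iHoxc9 only or in iHoxc10 only, by width of the progenitor domain (horizontal axis). Points are shares and bars 95% Wilson intervals; the share lost in both peaked at 20.3% for domains of 200 to under 300 bp and was 2.49% for domains of 500 bp or more.

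Most members had no iHoxc9 or iHoxc10 domain within 1000 bp. Within 10 kb, 49.6% had an iHoxc9 domain and 48.9% an iHoxc10 domain. These gaps were not compared with those of other domains. The median gap to the nearest iHoxc9 domain was 10134.5 bp, and to the nearest iHoxc10 domain 10409.5 bp. An iHoxc9 or iHoxc10 domain lay within 200 bp of 174 members (6.10%, 5.28 to 7.03) and within 1000 bp of 561 (19.7%, 18.2 to 21.2). Another eligible domain lay within 10 kb of 1032 members (36.2%). Counted from each member, these neighbours numbered 1512, of which 74.3% were kept in both and 9.66% were themselves lost in both. These shares lie near those of all eligible domains, 77.8% kept in both and 8.8% lost in both. Around domains kept in both, 79.8% of the neighbours were kept and 7.10% lost in both.

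Some members were wide in every list that held them. At least 150 bp in progenitors, noDox and iHoxc6 were 1112 members, at least 300 bp were 191, and at least 500 bp were 16. Of eligible domains at least 500 bp wide in all 3 lists, this is 0.129% (0.0794 to 0.209). By the smallest of the 3 widths, a ranking chosen after the values were seen, the foremost member lay at chr8:123428957-123430023 in an intron of Def8. It was 1067 bp wide in progenitors and lay under domains of 4318 bp in noDox and 4319 bp in iHoxc6. The nearest iHoxc9 domain was 2003 bp and the nearest iHoxc10 domain 1714 bp away. Whether these lay under the same wide noDox and iHoxc6 domains was not examined. The next lay at chr1:121111856-121113009 in an intron of the noncoding gene Celrr, 210.758 kb from the transcription start site (TSS) of Insig2, a regulator of cholesterol synthesis. It measured 1154 bp in progenitors, 1113 bp in noDox and 1034 bp in iHoxc6 and was absent from EB, with the nearest domains 14396 bp away in iHoxc9 and 14406 bp away in iHoxc10. Another, in an intron of the signalling adaptor gene Pik3ap1 at chr19:41275053-41276199, measured 1147 and 1393 bp in progenitors and noDox and was likewise absent from EB. In iHoxc6 it was split into 2 domains, the wider of them 717 bp.

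Among the 10 widest members by progenitor width, 9 were absent from EB. Of the 10, 9 were narrower in noDox and all 10 in iHoxc6 than in progenitors, which choosing them by progenitor width favours. None lay at a promoter. The widest, at chr12:57623082-57624325 in an intron of Ttc6 with the TSS of Foxa1 (a floor plate and endoderm factor) within 100 kb, went from 1244 bp in progenitors to 289 bp in noDox and 61 bp in iHoxc6. An intronic member of Notch2, a Notch receptor, at chr3:98025455-98026549 went from 1095 bp to 206 bp and 98 bp. A member 57.225 kb upstream of Klf6 at chr13:5803702-5804812 was the one of the 10 present in EB, with 607 bp there, 1111 bp in progenitors, 257 bp in noDox and 162 bp in iHoxc6.

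**Figure D3:**
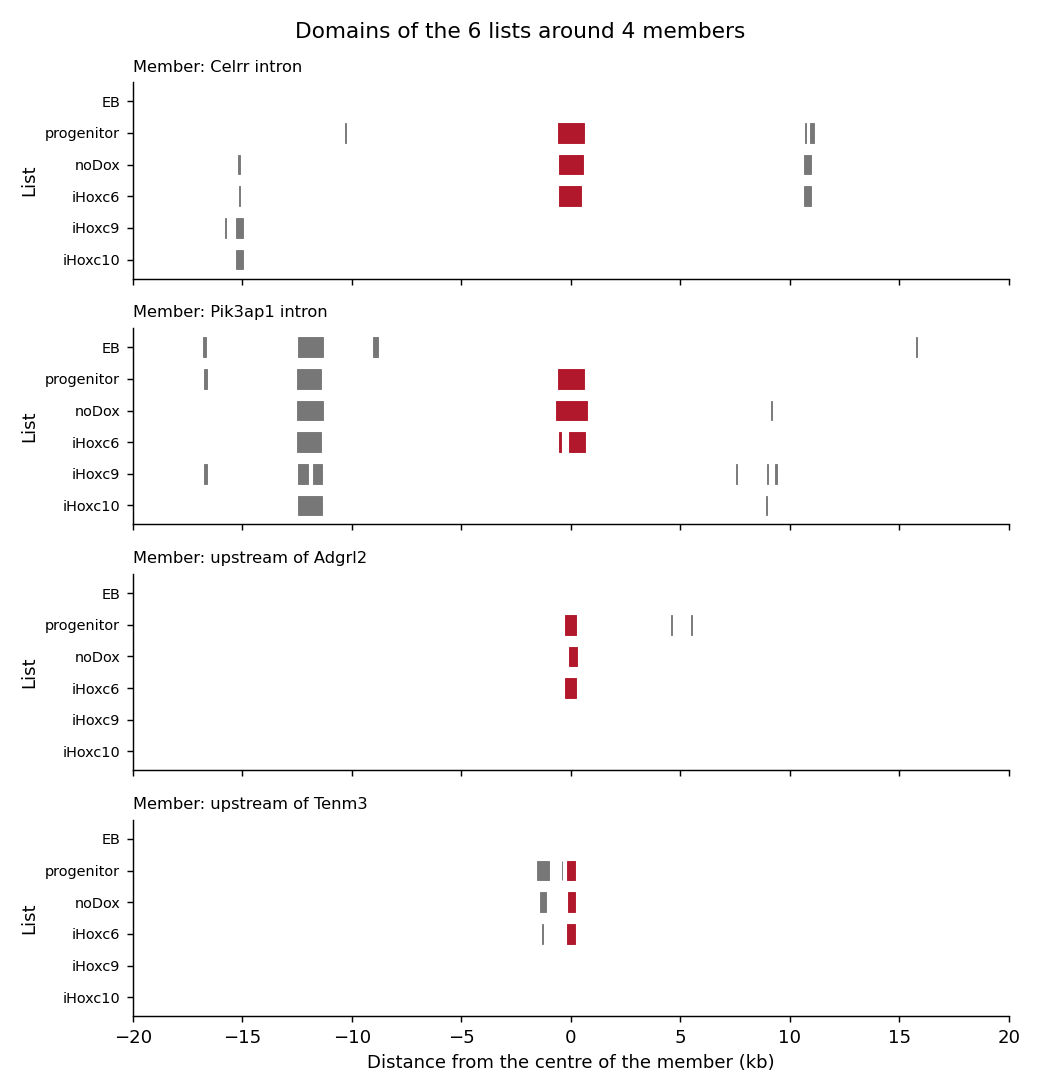
Domains of the 6 lists (rows) against distance in kb from the centre of 4 members (horizontal axis, 20 kb to either side): an intron of Celrr, an intron of Pik3ap1, and the members upstream of Adgrl2 and Tenm3 with the largest smallest width in the 3 holding lists. Red bars are domains that overlap the member and grey bars are other domains; around the Adgrl2 and Tenm3 members the EB, iHoxc9 and iHoxc10 lists held 0 domains in the whole window.

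The EB list took no part in the rule. It held 848 of the 2854 members (29.7%, 28.1 to 31.4), against 81.9% (81.4 to 82.4) of domains kept in both. Domains lost in iHoxc9 only stood at 38.9% (37.1 to 40.8) and those lost in iHoxc10 only at 56.5% (54.2 to 58.8). Most members were thus accessible in progenitors and not before patterning. Away from promoters (TSS of protein-coding genes, 1 kb to either side) the order was the same, with 26.6% (24.9 to 28.3) for domains lost in both and 65.4% (64.5 to 66.2) for domains kept in both. The gap to domains kept in both was also seen within every class of width. Away from promoters, the EB share of domains lost in both was 34.8% (30.7 to 39.2) at 150 to under 200 bp, 25.0% (22.3 to 28.0) at 200 to under 300 bp, 22.7% (20.02 to 25.6) at 300 to under 500 bp and 29.0% (24.6 to 33.8) at 500 bp or more. Domains kept in both stood at 76.8%, 57.1%, 64.2% and 65.7% in the same classes. The intervals of domains lost in both and lost in iHoxc9 only overlapped at 200 to under 300 bp and at 500 bp or more, where the latter held 28.8% and 29.5%. These gaps exceed counting error where intervals are apart, but the variation between samples behind them is unknown.

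**Figure D4:**
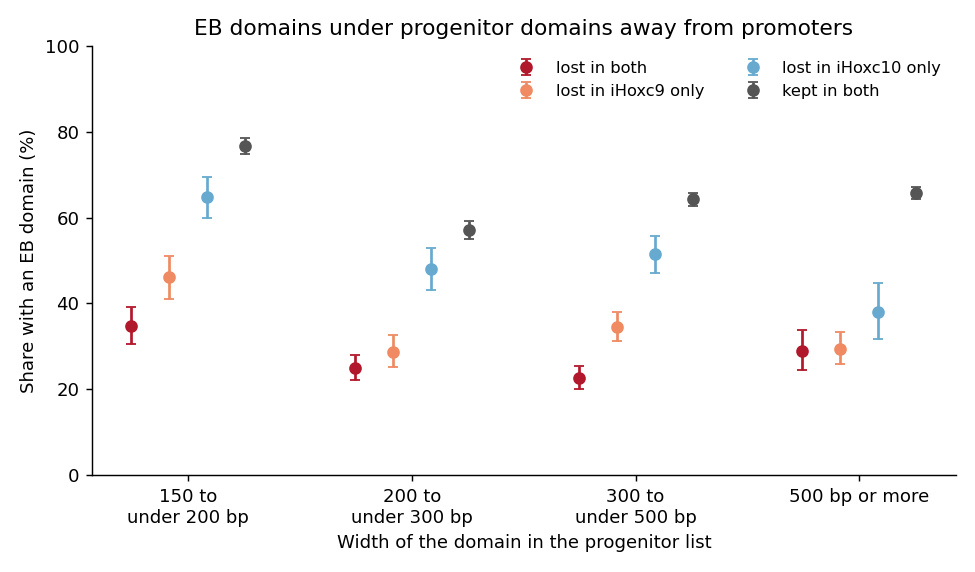
Share of progenitor domains away from promoters that overlap an EB domain (%, vertical axis), by progenitor width (horizontal axis) and set. Points are shares and bars 95% Wilson intervals; domains lost in both lie between 22.7% and 34.8% and domains kept in both between 57.1% and 76.8%.

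Read the other way, 3.60% (3.37 to 3.85) of the eligible domains already present in EB were lost in both, and 22.5% (21.6 to 23.4) of those absent from EB were. At promoters the shares were 1.18% (1.01 to 1.38) with and 21.4% (17.8 to 25.5) without an EB domain, and away from promoters 6.66% (6.19 to 7.15) and 22.6% (21.7 to 23.5). Among domains absent from EB, promoters and distal domains thus had overlapping intervals. Such promoter domains were few, with 93 of 434 lost in both.

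Members lay mostly in introns and between genes. Their centres fell in introns in 47.4% (45.5 to 49.2), between genes in 43.8% (42.0 to 45.6) and in exons in 8.83% (7.84 to 9.93). Over all eligible domains these shares were 35.1%, 34.7% and 30.2%, and over domains kept in both 31.7%, 32.5% and 35.8%. Domains lost in iHoxc9 only were near the members, at 47.3%, 42.3% and 10.4%. Those lost in iHoxc10 only stood at 45.9%, 40.6% and 13.5%, so this location is not particular to domains lost in both. A promoter was touched by 248 members (8.69%, 7.71 to 9.78), against 50.6% (49.9 to 51.2) of domains kept in both. The share was 11.4% (10.3 to 12.7) for domains lost in iHoxc9 only and 14.0% (12.4 to 15.7) for those lost in iHoxc10 only. Away from promoters 2606 of 18891 eligible domains (13.8%) were lost in both, and at promoters 248 of 13553 (1.83%). The median distance from members to the nearest coding TSS was 40.3 kb. Over 100 kb away lay 31.2% (29.5 to 32.9) of members, against 12.5% (12.1 to 12.9) of domains kept in both. The share was 26.5% (24.9 to 28.3) for domains lost in iHoxc9 only and 24.6% (22.6 to 26.7) for those lost in iHoxc10 only. Away from promoters the median distances were 48.9 kb for members and 33.4 kb for domains kept in both. Domains lost in iHoxc9 only stood at 41.2 kb there and those lost in iHoxc10 only at 35.9 kb. The loss was spread over all chromosomes, from 6.81% (5.83 to 7.95) of eligible domains on chromosome 11 to 10.6% (8.91 to 12.6) on chromosome 16.

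The central 150 bp of the members had a median GC content of 47.3%, against 59.3% for domains kept in both. Domains lost in iHoxc9 only and domains lost in iHoxc10 only both had a median of 48.7%, near that of the members. Away from promoters the gap between members and domains kept in both was smaller, with medians of 46.7% and 50.7%. Matches to 21 short motifs, spelled out below where named, were sought on both strands of the central 150 bp of domains away from promoters. Some of these motifs share letters: TTTAT lies within TGATTTAT, which is also a match to TGATNNAT, and TAAT lies within TAATTAAA.

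Motifs of SOX, FOX, TEAD and nuclear receptor factors were found more often in domains lost in both than in domains kept in both. AACAAT, a core bound by SOX factors, which include Sox2 of neural progenitors, was found in 17.5% (16.1 to 19.004) of domains lost in both and 10.1% (9.61 to 10.7) of domains kept in both, with 11.8% among all eligible domains away from promoters. Among domains of 40 to 50% GC the shares were 20.97% (18.9 to 23.2) and 15.5% (14.5 to 16.6). Domains lost in iHoxc9 only held it in 14.3% (12.9 to 15.8) and those lost in iHoxc10 only in 12.1% (10.6 to 13.9). At 40 to 50% GC the interval of domains lost in iHoxc9 only (17.8%, 15.6 to 20.2) overlapped that of domains lost in both. TGTTTAC, a FOX site, was found in 3.95% (3.27 to 4.77) of domains lost in both and 1.99% (1.76 to 2.25) of those kept, and domains lost in iHoxc10 only stood at 3.75% (2.90 to 4.84). GGAATG, a TEAD site, was found in 13.7% (12.5 to 15.1) against 9.46% (8.96 to 9.99), with 13.3% (11.7 to 15.1) in domains lost in iHoxc10 only. AGGTCA, the core bound by nuclear receptors such as those for RA, was found in 14.3% (13.0 to 15.7) against 11.3% (10.8 to 11.9), with a higher 17.0% (15.6 to 18.6) in domains lost in iHoxc9 only. The last 3 were thus as frequent in another lost set and are not particular to domains lost in both. For all 4 motifs the intervals of domains lost and kept in both also did not overlap among domains of 40 to 50% GC. In the opposite direction, the core of the motif of CTCF, a factor of chromatin loops, was found in 2.23% (1.73 to 2.87) of domains lost in both. It was found in 3.60% (2.91 to 4.44) of those lost in iHoxc9 only, 7.10% (5.90 to 8.51) of those lost in iHoxc10 only and 7.59% (7.13 to 8.06) of those kept. Among domains of 40 to 50% GC it was found in 1.28% (0.814 to 2.02) of those lost in both and 5.66% (5.02 to 6.37) of those kept. At that GC domains lost in iHoxc9 only stood at 1.80% (1.16 to 2.80), an interval that overlapped that of domains lost in both. Those lost in iHoxc10 only stood at 4% (2.78 to 5.72).

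The Hox cores were not more frequent in the members once composition was held. TAAT was found in 54.1% (52.3 to 56.0) of all domains lost in both and 30.4% (29.8 to 30.9) of all domains kept in both, and TTTAT in 29.1% (27.5 to 30.8) and 16.8% (16.3 to 17.3). Away from promoters the gap shrank to 56.6% against 47.9% for TAAT and to 30.5% against 27.4% for TTTAT. Among domains of 40 to 50% GC the shares of domains lost in both were the lower ones. TAAT stood at 63.7% (61.1 to 66.2) against 66.4% (65.0 to 67.8), with overlapping intervals. TTTAT stood at 35.4% (33.0 to 38.0) against 39.3% (37.9 to 40.7), with intervals that barely overlapped. TGATTTAT, which joins a PBX core to the posterior Hox core, was rarer in domains lost in both, with 0.729% (0.467 to 1.14) against 1.55% (1.35 to 1.79). At 40 to 50% GC it stood at 0.927% (0.543 to 1.58) against 2.35% (1.95 to 2.84). The values of domains lost in both rest on 19 and 13 domains. Domains lost in iHoxc9 only stood as low, at 0.650% (0.394 to 1.07), and at 0.665% (0.322 to 1.37) at 40 to 50% GC. Those lost in iHoxc10 only stood at 1.34% and 1.71%. The low share is thus not particular to domains lost in both. In all, 7 of the 21 motifs had an interval above that of domains kept in both, 4 below and 10 overlapping away from promoters. At 40 to 50% GC these numbers were 4, 2 and 15. A match is a string of letters and not an occupied site, and binding was not analysed here.

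**Figure D5:**
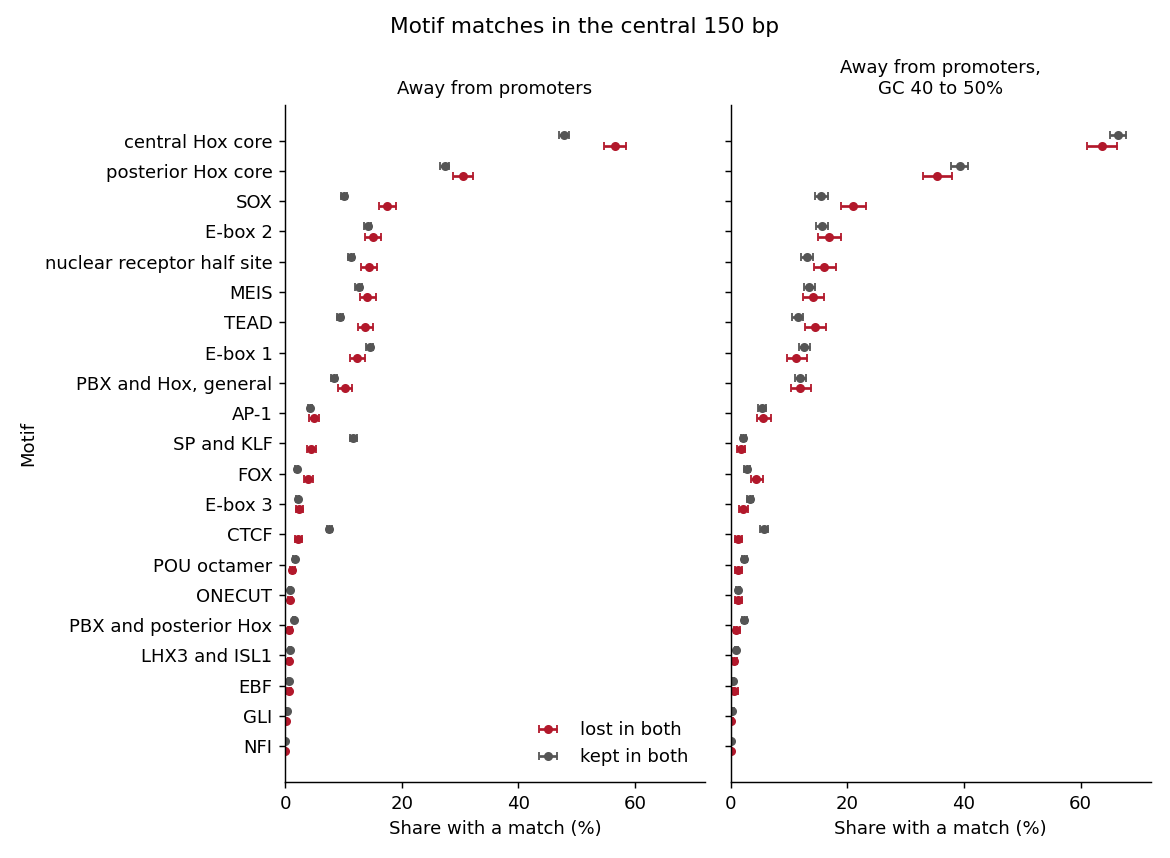
Share of domains away from promoters with a match in their central 150 bp (%, horizontal axis) for 21 motifs (rows), in domains lost in both (red) and kept in both (grey), for all such domains on the left and those of 40 to 50% GC on the right. Points are shares and bars 95% Wilson intervals, and E-box 1, 2 and 3 are motifs with GC, GA and TA at the centre. SOX, at 17.5% against 10.1% on the left, lies apart in both panels. The central and posterior Hox cores are higher in domains lost in both on the left. On the right they are lower, with overlapping intervals.

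Assigned to the nearest coding TSS, the members fell to 2236 genes. Of these, 1779 had 1 member, 351 had 2, 106 had 3 or more and 14 had 5 or more. The loss was therefore scattered over many genes. Tenm3, a teneurin of synaptic contacts, and Adgrl2, a latrophilin that binds teneurins, had 8 members each, of 21 and 25 eligible domains. Klhl29 had 6 of 10, Tenm4 6 of 26, and Ntm, Negr1 (neuronal adhesion molecules of the same family), Robo2 (a receptor for Slit guidance cues), Dlg2 (a synaptic scaffold) and Cdh2 (N-cadherin) had 5 each, of 10, 14, 17, 17 and 20. Me3, Fam181b, Olfm4, Zeb2 and Tbl1xr1 also had 5 each, of 10, 12, 13, 21 and 22. A gene with many eligible domains can collect members by number alone, and the share of all eligible domains was 8.8% overall and 13.8% away from promoters.

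The 8 members nearest to Adgrl2 lay between 10.37 and 1218.26 kb from the nearest of its annotated TSSs, and 6 of the 8 were absent from EB. The one nearest the gene, at chr3:148812227-148812991, lay beyond its 3′ end, and the TSS 10.37 kb away lies inside the gene. It measured 765 bp in progenitors, 418 bp in noDox and 115 bp in iHoxc6. The nearest iHoxc9 domain was 3018 bp and the nearest iHoxc10 domain 100386 bp away. A far member at chr3:150208567-150209069 measured 503, 349 and 495 bp, and the nearest iHoxc9 and iHoxc10 domains were 65635 and 63288 bp away. The first narrowed at day 4, whereas the second had nearly its progenitor width in iHoxc6. The 8 members nearest to Tenm3 lay 31.018 to 1377.9 kb from the nearest of its annotated TSSs, 3 of them in its introns, and 1 of the 8 was present in EB. Side by side in an intron of the noncoding gene 4930555F03Rik lay members of 565 and 372 bp, which measured 266 and 342 bp in noDox and 33 and 331 bp in iHoxc6. The nearest iHoxc10 domain was over 100 kb from either. With teneurins and a latrophilin among the first genes, their whole families and the FLRT proteins, which bind the same latrophilins, were counted after these values were seen. The 10 genes had 33 members among 137 eligible domains (24.1%), against 8.8% of all eligible domains and 13.8% of those away from promoters. The 4 teneurins had 16 of 67, the 3 latrophilins 12 of 46 and the 3 FLRT genes 5 of 24. Tenm3, Adgrl2 and Tenm4, whose ranking prompted the count, gave 8, 8 and 6 of the 33. The share is therefore a description and tests nothing. Tenm1, Adgrl1 and Flrt1 had 0.

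Six3, a transcription factor of the forebrain and eye field, had 4 members among its 5 eligible domains. One of them, at chr17:85621543-85621770, lay in an exon of Six3 0.626 kb from its TSS, measured 228 bp in progenitors, 290 bp in noDox and 29 bp in iHoxc6 and was absent from EB. The other 3 lay 124.973 to 148.346 kb upstream and measured 215, 687 and 217 bp in progenitors, 350, 71 and 208 bp in noDox and 39, 145 and 41 bp in iHoxc6. All 4 were thus reduced to 145 bp or less in iHoxc6. Other forebrain and midbrain factors gave 14 members of 83 eligible domains in all with Six3 (16.9%, 10.3 to 26.3), including 2 of 4 for Lhx9. Barhl2, of dorsal interneurons, had 3 of 5, and Zic4, of the dorsal neural tube, 3 of 6. Tspan8 was the single gene with 3 or more members whose eligible domains were all members, with 3 of 3, and is named after its values were seen.

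Of 17 gene lists compared, the intervals of 15 held the 8.80% (8.49 to 9.11) of all genes. Among these 15 were the lists of motor neuron differentiation. Motor neuron and neuronal factors had 4 of 94 eligible domains (4.26%, 1.67 to 10.4), ventral progenitor factors 6 of 103 (5.83%, 2.70 to 12.1), proneural and Notch genes 6 of 100 (6%, 2.78 to 12.5) and Hox genes 2 of 62 (3.23%, 0.889 to 11.0). Cadherins, which sort motor pools, had 25 of 176 (14.2%, 9.81 to 20.1), with 5 for Cdh2 and 3 of 16 for Cdh6. Motor column genes had 15 of 109 (13.8%, 8.52 to 21.5), 5 of them nearest to Zeb2. SOX factors had 15 of 119 (12.6%, 7.79 to 19.8), with 4 of 14 for Sox4, 3 of 14 for Sox5 and 3 of 9 for Sox13. Axon guidance genes had 39 of 338 (11.5%, 8.56 to 15.4), including 3 of 20 for Robo1 and 3 of 13 for Epha7. TALE cofactors, the homeodomain partners of Hox proteins, had 8 of 62 (12.9%, 6.69 to 23.4), 4 of them nearest to Meis1 among 20. RA response genes had 10 of 78 (12.8%, 7.12 to 22.0), Hedgehog pathway genes 7 of 58 (12.1%, 5.97 to 22.9) and spinal interneuron factors 10 of 96 (10.4%, 5.76 to 18.1). Mesoderm and endoderm factors had 7 of 45 (15.6%, 7.75 to 28.8), naive pluripotency genes 4 of 30 (13.3%, 5.31 to 29.7), caudal and axial genes 2 of 19 (10.5%, 2.94 to 31.4), and dorsal and crest factors 6 of 67 (8.96%, 4.17 to 18.2). The 2 lists whose intervals did not hold the share of all genes, forebrain and midbrain factors and cadherins, lay above it. Away from promoters their intervals (10.9 to 29.6 and 10.5 to 22.1) held the 13.8% of all genes. Motor neuron and neuronal factors had 3 of 62 eligible domains away from promoters (4.84%, 1.66 to 13.3). That interval lay below the 13.8% of all genes and rests on 3 members.

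The promoters of genes next to members were themselves mostly accessible. Of 1872 genes nearest to a member with a promoter domain in progenitors, 97.4% (96.6 to 98.1) had one in noDox, 98.2% (97.5 to 98.7) in iHoxc6. The iHoxc9 list held 90.9% (89.5 to 92.1) of them and the iHoxc10 list 91.7% (90.3 to 92.8). Of 10972 other genes near eligible domains, 96.7% (96.4 to 97.0) had one in iHoxc9 and 96.4% (96.1 to 96.8) in iHoxc10. Part of the difference is built in, since some members are the promoter domains of their genes. Over all coding genes and without the width limit, 13708 had a promoter domain in progenitors, noDox and iHoxc6, and 189 of these (1.38%) had none in iHoxc9 and iHoxc10. EB held a promoter domain for 144 of the 189 (76.2%, 69.6 to 81.7). This is a lower share than among genes with a progenitor promoter domain in general. Of those nearest to a member, EB held one for 97.4% (96.6 to 98.0). Of the other genes near eligible domains it held one for 98.6% (98.3 to 98.8). Of the genes on the lists, 6 were among them. Cyp26a1, which breaks down RA, had promoter domains of up to 854 bp in progenitors, 510 bp in noDox and 92 bp in iHoxc6. At Six6, a relative of Six3 in the forebrain and eye, the widest promoter domain measured 444 bp in progenitors, 237 bp in noDox and 198 bp in iHoxc6. At Shh, the Hedgehog ligand, it measured 36, 342 and 45 bp, at Mixl1, of mesendoderm, 36, 320 and 44 bp, and at Hoxd11 38, 88 and 72 bp. The last 3 thus rested on domains under 100 bp in progenitors and iHoxc6, and the sixth gene was Six3.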

How the data were processed

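ATAC-seq was measured in 12 samples, 2 per group. Read pairs had been aligned by the authors to mm10 with Bowtie2 2.2.2 and accessible domains called with DomainFinder, per the study's methods; Picard 2.8.2 is named in the submitters' processing notes. The deposited lists, 1 per group from both replicates together, hold chromosome, start and end in bp. Starts were read as in BED and printed counting from 1, so positions are uncertain by 1 bp. Rows run from wide to narrow domains, which the files do not explain.

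Overlap was at least 1 bp. Where several domains of a list overlapped a member, the width of the one with the most shared bases was taken. Genes came from GENCODE M21 (21829 coding genes with a TSS) and sequence from GRCm38.p6, the files' build. Genes named are the 15 with most members and the genes of 17 lists with at least 3; regions named are the 10 widest members and the widest of leading genes, and others are marked as chosen after their values were seen. The members, lists and tests were chosen with earlier results of these data known. Code was tested on simulated data (33 checks, 0 differed). Python 3.11.15, NumPy 2.4.6, SciPy 1.17.1 and Matplotlib 3.10.9 were used. Alternatives changed widths, overlaps, gaps and list lengths. Read depth is unknown.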

Additional observations from a re-analysis of the deposited data

How the results depend on the processing

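Of 79 values recomputed under alternatives, 36 stayed within the interval of the value reported (for the count of members, within 1.5 times) and 43 did not. None of these reversed the side on which members lay relative to domains kept in both: the EB share, the promoter share and GC stayed below and the TAAT and TTTAT shares above in all 12 alternatives each (11 for GC). Holding GC was not among them, and away from promoters at 40 to 50% GC both Hox cores lay on the other side, with TAAT in 63.7% of domains lost in both against 66.4% of those kept and TTTAT in 35.4% against 39.3%. Alternatives that cut the lists in file order, or kept only regions away from promoters for the EB share and GC, were chosen after seeing the data. The count of members was 5219 with no minimum width, 1361 from 300 bp, 405 from 500 bp and 891 when noDox and iHoxc6 each had to cover at least 50% of the domain, and the share of eligible domains was 12.1%, 5.61%, 2.49% and 3.58%. That share was 8.26% and 7.07% when no iHoxc9 or iHoxc10 domain lay within 200 or 1000 bp, 6.37% and 6.39% in day 4 lists of equal length by width or file order, and 12.0% without the noDox list. The EB share was 34.2% with no minimum width, 27.9% from 300 bp, 32.3% from 500 bp, 25.5% at 50% cover, 27.4% with 1000 bp kept free, 34.5% with day 4 domains of at least 50 bp, 17.2% when EB had to cover 50%, and 26.6% away from promoters. The promoter share was 9.81% with no minimum width, 7.18% at 50% cover, 7.35% and 4.67% with 200 and 1000 bp kept free, and 18.4% and 6.10% with promoters of 5 kb and 500 bp to either side. TTTAT was found in 25.2% with no minimum width, 32.2% from 300 bp, 31.9% from 500 bp, 26.7% at 50% cover and 20.04% in the central 100 bp. TAAT was found in 51.8%, 56.3% and 59.5% under the same widths, 56.1% with 1000 bp kept free, 41.5% in the central 100 bp and 56.6% away from promoters. Median GC was 48.7% with no minimum width, 46% from 300 and from 500 bp, and 46.7% with 1000 bp kept free and away from promoters. Causes of these shifts were not tested.

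No paired analysis was possible because each group has 1 list made from both replicates, and leaving out a replicate was impossible for the same reason. Without heights or read counts, a domain just under the caller's limit cannot be told from closed chromatin. The noDox list shares its cell line with iHoxc6, while line, sequencing and calling settings cannot be told apart from group.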
